A study of Mus musculus with 8 samples.

Results

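The proteasome genes of mouse embryonic fibroblasts were followed through a response to interferon-beta (IFN-beta), an antiviral cytokine of the type I class. The set held every gene whose symbol begins with Psma, Psmb, Psmc, Psmd, Psme, Psmf or Psmg and then a digit, which gave 50 of the 24015 genes in the count tables. Of these, 5 were immuno-subunits (Psmb8, Psmb9, Psmb10, Psme1 and Psme2), 43 were treated as constitutive members, and 2 were set apart. The latter were Psme2b, a copy of Psme2, and Psmc3ip, a meiotic recombination factor that is not a proteasome subunit.

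The IFN-beta group consisted of 2 RNA-seq libraries, made 6 h after recombinant murine IFN-beta was added at 100 units/mL, and the untreated group of 2 libraries from cells left without it. All 4 libraries came from fibroblasts labelled wild type on a C57bl/6 background, derived at E12.5 and used at passages 15-18. The series also lists chromatin samples of the HA-tagged histone H3.3, which were not analysed here. Separate cultures are not stated for the numbered replicates, and the p-values therefore reflect the spread among these 4 libraries alone, part or all of which may be technical.

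As background, the proteasome is the barrel-shaped protease that destroys ubiquitin-tagged proteins in the cytosol and nucleus. Its core particle (the 20S) stacks rings of alpha subunits, which gate the entrance, around rings of beta subunits, some of which carry the active sites. A cap (the 19S) with ATPase and non-ATPase subunits recognises, unfolds and feeds substrates. Interferons are known to bring in replacement active-site subunits, Psmb9 for Psmb6 at the beta1 site, Psmb10 for Psmb7 at the beta2 site and Psmb8 for Psmb5 at the beta5 site, together with the PA28 activator built from Psme1 and Psme2. The resulting immunoproteasome favours peptides that fit MHC class I molecules.

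The libraries held 18901845 and 20714161 gene counts after IFN-beta, and 18528685 and 24817342 without it. The ribosomal transcript Rn45s took 10.2% and 9.06% of the gene counts after IFN-beta, against 4.20% and 5.65% in untreated cells. The 10 fibroblast markers were all detected, with a summed level of 7357 to 7841 CPM (counts scaled to a library of 1e6) in IFN-beta libraries and 7086 to 7953 CPM in untreated ones. Most of this came from Vim and S100a4, which lay in opposite directions (log2 fold change 0.31 and -0.36), while Lum had only 1.01 to 4.21 CPM. None of the 10 was called, with log2 fold changes from -0.62 (Pdgfra) to 0.31 (Vim). Blood cells carry immunoproteasomes without interferon, and 11 of their markers summed to 7.91 and 14.7 CPM after IFN-beta, against 9.82 and 16.7 CPM in untreated cells, with Cd3e at 0 in all 4 libraries. The 5 epithelial markers summed to 44.5 and 49.98 CPM after IFN-beta, against 49.7 and 66.5 CPM in untreated cells, nearly all of it from Krt19. The 5 endothelial markers summed to 2.02 and 3.14 CPM after IFN-beta, against 0.936 and 1.06 CPM in untreated cells, and of these Cdh5 passed the test as higher (log2 fold change 2.68, edgeR adjusted p = 0.0140; 0.0777 without IFN-beta replicate 1). The part of these markers and of Rn45s in the results was not tested, but the calls of the immuno-subunits were the same without Rn45s. In bulk RNA, fewer cells of a type and less RNA per cell cannot be told apart.

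All 5 immuno-subunits rose after IFN-beta, and none of the 41 constitutive members that could be tested passed the test in either direction. Over all 12128 tested genes, 4.73% were called higher, 0.495% lower and 5.23% in either direction by edgeR's quasi-likelihood test, at an adjusted p (Benjamini-Hochberg) below 0.05. The median log2 fold change was 3.02 for the immuno-subunits and -0.05 for the constitutive members, beside -0.02 for all tested genes. Levels are given as CPM after TMM scaling, which are not corrected for transcript length and so are compared between libraries and not between genes.

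The active-site subunits of the immunoproteasome moved most, and Psmb8 and Psmb9 had very low levels in untreated cells. Psmb8, which carries the chymotrypsin-like activity of the beta5 site, had 41.7 and 42.0 CPM in IFN-beta libraries (744 and 833 counts), against 0.572 and 0.379 CPM in untreated libraries (11 and 10 counts). Both IFN-beta libraries stood far above both untreated ones, at a log2 fold change of 6.48 ± 0.24 (SE, edgeR adjusted p = 4.3e-08). Psmb9, of the beta1 site, had 128 and 166 counts after IFN-beta, against 1 count in each untreated library. The ratio of its pooled, depth-scaled counts was 178, with a 95% exact interval of 48.8 to 1476 that covers counting error only, and its edgeR log2 fold change was 7.29 ± 0.43 (SE, adjusted p = 1.7e-06). Psmb10, of the trypsin-like beta2 site, differed from these in having a clear level without interferon. It had 77.4 and 81.3 CPM after IFN-beta, against 10.4 and 9.18 CPM in untreated cells, without overlap, and rose by a log2 fold change of 3.02 ± 0.15 (SE, edgeR adjusted p = 4.0e-07).

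The genes of the PA28 alpha-beta activator, a ring that docks on the core and opens it for peptides, rose by less and by similar amounts. Psme1 had 68.99 and 66.3 CPM in IFN-beta libraries, against 19.9 and 16.3 CPM in untreated libraries (log2 fold change 1.90 ± 0.15 SE, edgeR adjusted p = 1.9e-05). Psme2 had 92.7 and 103 CPM in IFN-beta libraries, against 30.8 and 24.7 CPM in untreated libraries (log2 fold change 1.82 ± 0.15 SE, edgeR adjusted p = 2.8e-05). For both genes every IFN-beta library lay above every untreated one. Psme2b, the copy of Psme2, was also called higher, with 8.91 and 13.05 CPM after IFN-beta, against 3.17 and 2.01 CPM in untreated cells (log2 fold change 2.11 ± 0.28 SE, edgeR adjusted p = 0.0011). Its counts are uncertain, because reads shared with Psme2 cannot be assigned and because in RefSeq (GRCm38.p6) it overlaps another gene called higher. Such shared reads are left out of the Psme2 counts as well.

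**Figure D1:**
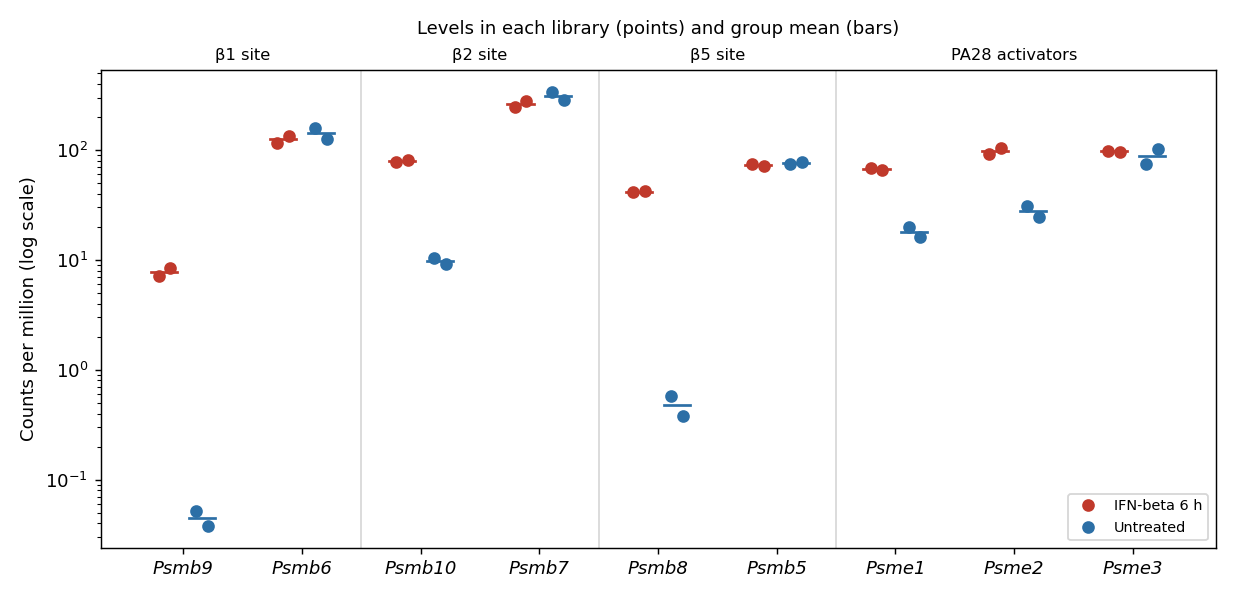
CPM in each library (points, log axis) and the group mean (bars) for the immuno-subunits, their constitutive partners at the same catalytic site, and the PA28 genes, with IFN-beta at 6 h in red and untreated in blue. The red and blue points of Psmb9, Psmb10, Psmb8, Psme1 and Psme2 are well apart, as for Psmb8 at 41.7 and 42.0 CPM against 0.572 and 0.379 CPM, whereas those of Psmb6, Psmb5 and Psme3 overlap and those of Psmb7 lie close together.

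The constitutive partners at the same sites did not pass the test. Psmb5 had 74.3 and 72.2 CPM after IFN-beta, against 73.9 and 77.5 CPM in untreated cells (log2 fold change -0.05 ± 0.12 SE, edgeR adjusted p = 0.880), and the groups overlapped. Psmb6 had 116 and 134 CPM after IFN-beta, against 159 and 126 CPM in untreated cells, and the groups overlapped (-0.19 ± 0.15 SE, edgeR adjusted p = 0.542). Psmb7 had 248 and 278 CPM after IFN-beta, against 340 and 284 CPM in untreated cells, so both IFN-beta libraries lay lower, without a call (-0.24 ± 0.14 SE, edgeR adjusted p = 0.384). With untreated replicate 2 left out, Psmb6 and Psmb7 were called lower (log2 fold change -0.35 and -0.37, edgeR adjusted p = 0.0269 and 0.0166), while Psmb6 stood at 0.011 with untreated replicate 1 left out.

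Set against its partner within each library, the immuno form took a larger share of the counts of all 3 catalytic sites. This share needs no scaling between libraries, but it is a share of counts and not of molecules, since transcript lengths were not used. At the beta5 site Psmb8 made up 35.9% and 36.8% of the Psmb8 and Psmb5 counts after IFN-beta (95% Wilson intervals 33.9% to 38.0% and 34.8% to 38.8%), against 0.768% and 0.487% in untreated cells (0.429% to 1.37% and 0.265% to 0.894%). At the beta2 site Psmb10 made up 23.8% and 22.6% after IFN-beta (22.7% to 24.9% and 21.7% to 23.6%), against 2.97% and 3.14% in untreated cells (2.59% to 3.40% and 2.77% to 3.55%). At the beta1 site Psmb9 made up 5.82% and 5.86% after IFN-beta (4.91% to 6.88% and 5.05% to 6.78%), against 0.0326% and 0.0300% in untreated cells (0.00576% to 0.184% and 0.00529% to 0.170%). The intervals, which cover counting error only, were far apart at each site, and the replicates of a group lay close together.

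Expressed as a difference of log2 ratios, the shift was 6.26 for Psmb8 to Psmb5, 5.98 for Psmb9 to Psmb6 and 3.25 for Psmb10 to Psmb7. The Psmb9 value rests on 1 count per untreated library and so on the prior count of 2: with a prior count of 0.5 it was 7.01, beside 6.46 for Psmb8, and the order of these sites turned. Without a site partner, Psme1 and Psme2 were set against Psme3, the gene of the nuclear PA28 gamma ring, with differences of 1.75 and 1.67. The Psme ratios were steady after IFN-beta (SD 0.021 and 0.133, n = 2) and varied more in untreated cells (SD 0.526 and 0.546, n = 2). Between the untreated libraries Psme3 itself differed (74.8 and 103 CPM). Psme1 (19.9 and 16.3 CPM) and Psme2 (30.8 and 24.7 CPM) differed there in the opposite direction. Each of these 8 shares and ratios was higher in both IFN-beta libraries than in both untreated ones. The 8 are not independent. The shares and ratios of the catalytic sites use the same pairs of counts, and both Psme ratios use Psme3. A two-sided exact permutation test gave p = 0.333 for each, which is the smallest p that 2 libraries against 2 allow, so these shifts cannot reach significance by that test.

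**Figure D2:**
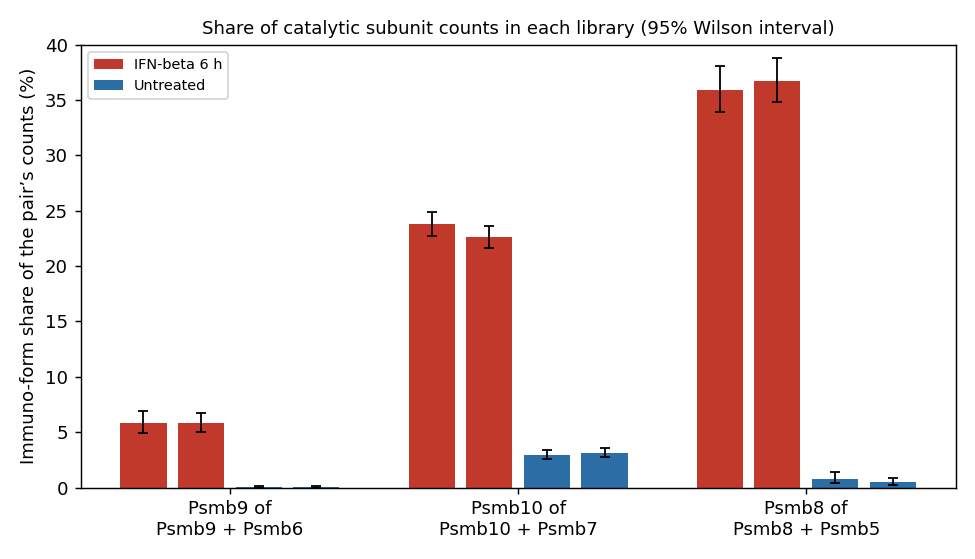
Percentage of the counts of each catalytic pair that came from the immuno form (vertical axis), 1 bar per library with its 95% Wilson interval, IFN-beta at 6 h in red and untreated in blue. The Psmb8 bars stand at 35.9% and 36.8% after IFN-beta, the Psmb10 bars at 23.8% and 22.6% and the Psmb9 bars at 5.82% and 5.86%, each far above the untreated bars.

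The promoters of these genes are shown because the members that rose share no single spelled-out interferon motif in them. RefSeq windows from 250 bases before to 50 after the transcript start (GRCm38.p6) were held for 42 of the 50 genes. The core of the interferon-stimulated response element, GAAA followed after 2 bases of any kind by GAAA on either strand, was found in the windows of 5 of the 42 genes (11.9%), and in those of 3.99% of all genes (3.44% of 32851 windows). Psme1 was the only immuno-subunit among the 5, with Psmb3, Psmd4, Psmd9 and Psmg4 as the others, and none of those 4 was called. The gamma-activated site TTCNNNGAA was found for Psmb8, Psmd2 and Psmg1 (7.14%), and for 9.55% of all genes. TGACNNNGC, the core bound by the Nfe2l1 family of proteasome regulators, was found for Psmb5, Psmb6, Psmc6, Psmd12, Psmd9 and Psme4, in none of the immuno-subunit windows. That made 14.3% of the member genes, beside 14.0% of all genes. A match describes letters in this window, and its absence says only that those letters are not there.

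Capitals mark the gamma-activated-site letters in the Psmb8 window, the response-element letters in the Psme1 window and the TGACNNNGC letters in that of the constitutive Psmb5. In the Psmb9 window they mark the 275 bases that also lie in the window of Tap1, the peptide transporter gene that starts beside Psmb9 on the opposite strand. Each is written 5′ to 3′ on the strand of its gene, at chr17:34197945-34198244 (+), chr17:34187281-34187580 (-), chr14:55578244-55578543 (+) and chr14:54617946-54618245 (-).
Psmb8: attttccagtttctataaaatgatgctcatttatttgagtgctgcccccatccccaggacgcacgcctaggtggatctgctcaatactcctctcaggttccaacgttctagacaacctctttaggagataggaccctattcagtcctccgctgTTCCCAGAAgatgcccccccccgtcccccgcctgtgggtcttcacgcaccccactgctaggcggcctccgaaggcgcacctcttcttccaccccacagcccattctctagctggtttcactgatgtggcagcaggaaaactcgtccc
Psmb9: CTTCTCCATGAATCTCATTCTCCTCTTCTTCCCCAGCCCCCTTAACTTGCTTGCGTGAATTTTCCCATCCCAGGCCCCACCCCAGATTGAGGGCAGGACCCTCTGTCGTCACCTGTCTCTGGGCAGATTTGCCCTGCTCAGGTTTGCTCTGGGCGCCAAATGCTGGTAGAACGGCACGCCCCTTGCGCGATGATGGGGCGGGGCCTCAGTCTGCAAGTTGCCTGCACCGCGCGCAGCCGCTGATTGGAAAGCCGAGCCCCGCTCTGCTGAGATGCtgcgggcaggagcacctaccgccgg
Psme1: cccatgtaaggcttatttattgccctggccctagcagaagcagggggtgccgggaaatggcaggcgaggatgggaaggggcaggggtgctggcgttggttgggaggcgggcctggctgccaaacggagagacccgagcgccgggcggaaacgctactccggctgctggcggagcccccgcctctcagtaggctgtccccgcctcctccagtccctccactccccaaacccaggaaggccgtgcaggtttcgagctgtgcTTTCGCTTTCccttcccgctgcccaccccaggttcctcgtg
Psmb5: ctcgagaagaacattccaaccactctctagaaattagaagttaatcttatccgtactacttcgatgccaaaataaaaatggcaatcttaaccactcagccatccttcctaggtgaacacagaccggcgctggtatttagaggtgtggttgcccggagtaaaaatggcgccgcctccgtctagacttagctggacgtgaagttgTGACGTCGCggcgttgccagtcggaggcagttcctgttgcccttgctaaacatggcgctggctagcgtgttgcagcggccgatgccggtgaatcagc

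Tap1, whose window overlaps that of Psmb9, had 2057 and 2198 counts after IFN-beta, against 17 and 17 counts in untreated cells. Its log2 fold change was 7.23 ± 0.20 (SE, edgeR adjusted p = 1.0e-08), beside 7.29 for Psmb9. All 7 genes of the list for the later steps of class I presentation were called higher, beside 4.73% of all tested genes. This list was chosen with earlier results of these data known. Its median log2 fold change was 1.91, with Tapbp at 2.87 and Tap2 at 3.35.

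The core particle outside the immuno-subunits showed small and uneven differences. Of the 7 alpha-ring genes, 6 had a log2 fold change below 0, beside 6385 of all 12128 tested genes, and none passed (median -0.14). Psma1 was lowest, with 187 and 207 CPM after IFN-beta, against 281 and 242 CPM in untreated cells, without overlap (-0.41 ± 0.13 SE, edgeR adjusted p = 0.131). Psma5 was highest and close to even, with 249 and 276 CPM after IFN-beta, against 283 and 240 CPM in untreated cells (0.01 ± 0.13 SE, edgeR adjusted p = 0.985). The beta-ring genes without an active site were split. Psmb1 had 300.3 and 355 CPM after IFN-beta, against 466 and 383 CPM in untreated cells (-0.37 ± 0.15 SE, edgeR adjusted p = 0.211), so both IFN-beta libraries lay lower. Psmb2 had 103 and 107 CPM after IFN-beta, against 92.5 and 85.3 CPM in untreated cells (0.24 ± 0.12 SE, edgeR adjusted p = 0.356), so both lay higher. The genes of the tissue-restricted core subunits were too low to test. Psma8, known from testis, had 0 counts in every library, which allows up to 0.0796 CPM over the IFN-beta libraries and 0.0658 CPM over the untreated ones (3 counts per group). Psmb11, known from thymic epithelium, had 2 and 10 counts after IFN-beta, against 0 and 7 counts in untreated cells.

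**Figure D3:**
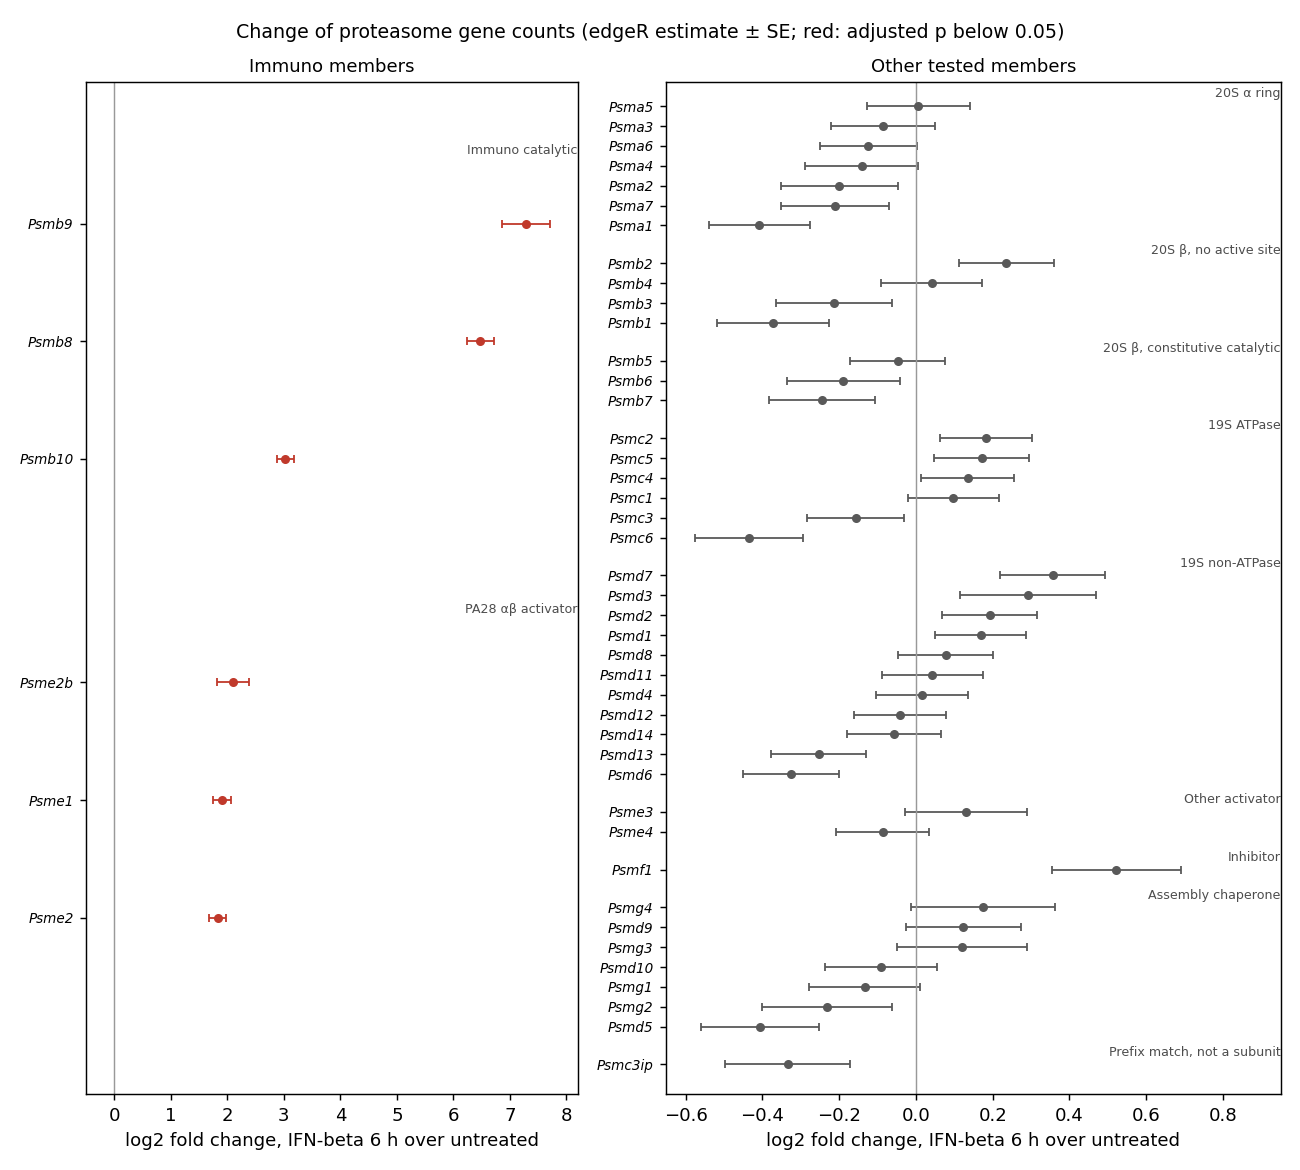
log2 fold change of each tested member (horizontal axes, IFN-beta at 6 h over untreated, edgeR estimate ± SE), grouped by role, with immuno members on a wider scale at left and the others at right. The immuno members and Psme2b in red passed the test, at 1.82 to 7.29, while the other members in grey lay between -0.44 and 0.52 and did not.

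Genes of the cap gave 0 calls among 6 ATPases and 11 non-ATPase subunits. Among the ATPases, which pull substrates into the core, Psmc6 had 362 and 422 CPM after IFN-beta, against 574 and 486 CPM in untreated cells (-0.44 ± 0.14 SE, edgeR adjusted p = 0.133). Psmc2 had 143 and 138 CPM after IFN-beta, against 121 and 126 CPM in untreated cells (0.18 ± 0.12 SE, edgeR adjusted p = 0.461). The groups did not overlap for any of the 6 ATPase genes, though none was called. Both IFN-beta libraries were higher for 4 (Psmc1, Psmc2, Psmc4 and Psmc5), or 66.7%, beside 23.9% of all tested genes. They were lower for 2 (Psmc3 and Psmc6), or 33.3%, beside 26.8% of all tested genes. Among the non-ATPase subunits, Psmd6 had 180 and 192 CPM after IFN-beta, against 245 and 220 CPM in untreated cells (-0.33 ± 0.12 SE, edgeR adjusted p = 0.203). Psmd7, the partner of the deubiquitinase Psmd14, had 127 and 122 CPM after IFN-beta, against 87.5 and 107 CPM in untreated cells (0.36 ± 0.14 SE, edgeR adjusted p = 0.205). Psmd14 itself had 181 and 192 CPM after IFN-beta, against 203 and 186 CPM in untreated cells (-0.06), and the ubiquitin receptor Psmd4 was at 0.02. Of the 11 non-ATPase genes, 7 had a log2 fold change above 0 and 4 below, and the groups overlapped for 5. Among all 12128 tested genes, 5743 lay above 0 and 6385 below, and the groups overlapped for 5979. Psmd1 and Psmd2, which encode the large scaffolds of the cap, were at 0.17 and 0.19. Over the whole cap the median was 0.08, beside -0.17 over the 14 constitutive core genes, 11 of which lay below 0; the difference between these medians was not tested. The cap median was 0.0056 with upper quartile scaling and turned to -0.07 with total library size, where the median of all tested genes was -0.16. The core median was -0.0013 without untreated replicate 1 and -0.28 without IFN-beta replicate 2.

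Other regulators of the core were also without a call. Psmf1, known as the PI31 inhibitor, had the largest log2 fold change among constitutive members, with 22.5 and 21.4 CPM after IFN-beta, against 13.7 and 16.8 CPM in untreated cells, without overlap (0.52 ± 0.17 SE, edgeR adjusted p = 0.128). The adjusted p of Psmf1 ran from 0.00074 to 0.769 over the alternative settings, and it passed with untreated replicate 2 left out. Psme3 had 98.4 and 96.4 CPM after IFN-beta, against 74.8 and 103 CPM in untreated cells, with overlap (0.13 ± 0.16 SE, edgeR adjusted p = 0.713). Psme4, the PA200 activator, had 246 and 240 CPM after IFN-beta, against 269 and 247 CPM in untreated cells (-0.09 ± 0.12 SE, edgeR adjusted p = 0.759), so the groups lay side by side without overlap. Psmc3ip, the recombination factor, had 14.0 and 15.7 CPM after IFN-beta, against 18.1 and 19.3 CPM in untreated cells (-0.33 ± 0.16 SE, edgeR adjusted p = 0.316).

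The 7 assembly chaperones, which guide the rings together and leave the finished particle, gave 0 calls with a median of -0.09. That median was -0.23 with total library size, -0.16 with upper quartile scaling and 0.022 without untreated replicate 1. Psmd5, a chaperone of the ATPase ring, had 144 and 149 CPM after IFN-beta, against 223 and 165 CPM in untreated cells (-0.41 ± 0.15 SE, edgeR adjusted p = 0.199). Psmg4 had 11.8 and 14.1 CPM after IFN-beta, against 12.6 and 10.4 CPM in untreated cells, with overlap (0.17 ± 0.19 SE, edgeR adjusted p = 0.673). Psmg1 and Psmg2, which act as a pair on the alpha ring, were at -0.13 and -0.23. Pomp, the maturation factor of the core whose protein is known to speed immunoproteasome assembly, had 145 and 152 CPM after IFN-beta, against 142 and 129 CPM in untreated cells (0.13 ± 0.12 SE, edgeR adjusted p = 0.608).

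Read against all genes, the constitutive members were close to the background. An unadjusted p below 0.05 was reached by 7 of the 41, or 17.1%, beside 18.2% of all tested genes, and DESeq2 and limma-voom also called 0. Both IFN-beta libraries lay above both untreated ones for 11 members, or 26.8%, beside 23.9% of all tested genes, and below them for 9 members, or 22.0%, beside 26.8%. With a standard error of 0.12 to 0.19 per gene, small changes cannot be told from none here. With untreated replicate 2 left out, 4 constitutive members were called higher (Psmd3, Psmd7, Psme3 and Psmf1) and 9 lower (Psma1, Psma2, Psmb1, Psmb6, Psmb7, Psmc6, Psmd5, Psmd6 and Psmg2), in a fit that called 1885 genes higher and 1728 lower in all.

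The replicates of a group differed for the core genes by as much as the groups did. Relative to each gene's mean over the 4 libraries, the 14 constitutive core genes had a median log2 deviation of -0.18 and 0.03 in the IFN-beta libraries, against 0.18 and -0.04 in the untreated ones. The first replicate of each group was therefore the extreme one, and the second replicates lay next to each other. The 17 cap genes had medians of 0.05 and 0.04 in the IFN-beta libraries, against -0.05 and -0.04 in the untreated ones, with a wider spread of single genes in untreated replicate 1.

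**Figure D4:**
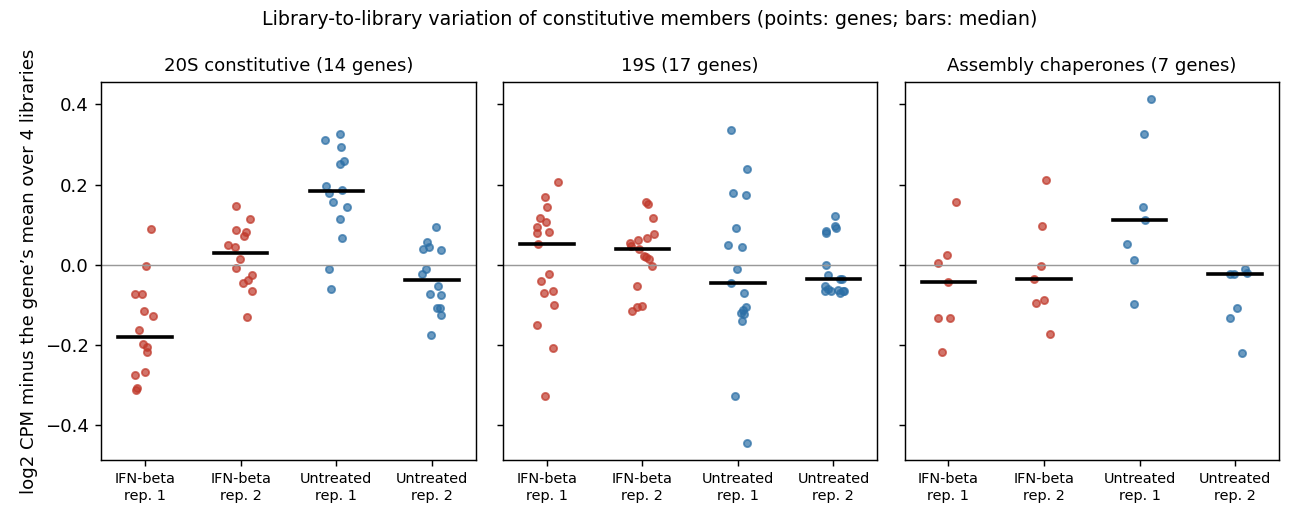
log2 CPM of each constitutive gene minus its mean over the 4 libraries (vertical axis) for the core, the cap and the assembly chaperones, 1 point per gene, with the median as a bar, IFN-beta at 6 h in red and untreated in blue. For the 14 core genes the medians are -0.18 in IFN-beta replicate 1 and 0.18 in untreated replicate 1, while the second replicates of both groups lie near 0.

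Genes that work with the proteasome were divided in the same way. Irf1 and Nlrc5, regulators known to switch on immunoproteasome or class I genes, both rose. Irf1 had 1712 and 2375 counts after IFN-beta, against 259 and 365 counts in untreated cells (log2 fold change 2.98 ± 0.16 SE, edgeR adjusted p = 7.2e-07). Nlrc5, the transactivator of class I genes, had 2052 and 2374 counts after IFN-beta, against 267 and 465 counts in untreated cells (2.89 ± 0.16 SE, edgeR adjusted p = 8.3e-07). For both genes the groups were far apart.

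The regulators that restore proteasome genes when proteolysis fails gave 0 calls among 4, with Ddi2, the protease that releases Nfe2l1, at 0.29, Nfe2l2 at 0.18 and Nfe2l1 at 0.19. Of 15 tested partners outside the prefixes 0 passed and the median was 0.07. Those with the smallest p-values were Zfand5, a proteasome-binding zinc finger protein (-0.36, edgeR adjusted p = 0.159), the small cap subunit gene Shfm1 (-0.37, edgeR adjusted p = 0.238) and Txnl1 (-0.25, edgeR adjusted p = 0.309). The cytosolic peptidases that trim or destroy its products gave 0 calls among 10, with a median of 0.04. They were led by the aminopeptidase gene Lap3 (0.27, edgeR adjusted p = 0.269), with Prep at 0.21 and Nrd1 at 0.17. Ubiquitin and ubiquitin-activating enzyme genes gave 0 calls among 6, with Uba1 at 0.27 (edgeR adjusted p = 0.303) and Rps27a at -0.30 (edgeR adjusted p = 0.406). These counts of 0 also changed without untreated replicate 2, where, among the genes named here, Ddi2 (0.55, edgeR adjusted p = 0.0244), Nfe2l1 (0.35), Prep (0.36) and Uba1 (0.39) were called higher and Zfand5 (-0.43), Shfm1 (-0.50) and Rps27a (-0.41) lower. Zfand5 was also called lower with total library size (-0.50, edgeR adjusted p = 0.0425).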

How the data were processed

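The deposited values were raw read counts per gene symbol, 1 table per library, not normalized or pooled by the authors. The submitters' processing notes name build mm9, TopHat2 2.0.13 and HTSeq 0.7.2. Annotation and strand setting: not given in the sources used here. Reads with several alignments are left out of such counts, which touches members with near-identical copies. The summary lines that name no gene held 57.3% to 61.3% of the records and were left out. Chi-square statistics per gene were 12.1 within the IFN-beta pair and 34.2 within the untreated pair, beyond sampling noise.

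All genes were fitted with edgeR 4.0.16 in R 4.3.3 (quasi-likelihood test, TMM, group as the only term, filter with minimum count 10 and minimum total 15), with p-values adjusted over all tested genes. Standard errors are the log2 fold change divided by the square root of F. log2 ratios used log2 CPM with a prior count of 2. The procedure was tested on simulated data. Alternatives were other scalings and filters, DESeq2 1.42.0, limma-voom (limma 3.58.1), a replicate block, each library left out, a prior count of 0.5 and, added after the data were seen, a fit without Rn45s.

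Members and lists were chosen with earlier results of these data known. Named are the immuno-subunits and their partners, Psme3, Psme4, Psmf1, every called member, the highest and lowest member of each role without a call, Pomp, the immunoproteasome regulators and up to 3 genes by p-value of each other pathway list; other genes were named after their values were seen. Some genes the rule names are not reported here. Sequences are from RefSeq, GRCm38.p6.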

Additional observations from a re-analysis of the deposited data

How the results depend on the processing

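The 5 immuno-subunits were called higher under each alternative fit that was run, and so was Psme2b. Their median log2 fold change was 2.88 with total library size scaling, which put the median of all tested genes at -0.16, and 2.93 to 3.14 with 1 library left out. Among constitutive members the number called lower was 1 without a count filter (Psmc6), 2 with total library size (Psma1 and Psmc6) and 0 to 9 with 1 library left out, and the number called higher was 0 to 4 with 1 library left out. Over all members the calls were likewise 1, 2 and 0 to 9 lower, and 6 to 10 higher. The constitutive median was -0.19 with total library size, -0.12 with upper quartile scaling and -0.11 to 0.022 with 1 library left out. The Psmb9 to Psmb6 difference was 7.01 with a prior count of 0.5. Signs turned for Pomp (-0.0080), Psme3 (-0.015) and Psma5 (-0.13) with total library size, for Psma5 with upper quartile scaling (-0.066), and within the ranges over single libraries left out for Psma5 (-0.11 to 0.16), Psmb6 (-0.35 to 0.011), Psme3 (-0.055 to 0.38) and Psme4 (-0.15 to 0.0018). The cause was not tested.

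Deviations of same-numbered libraries correlated at -0.03 over the tested genes. A value near 0 cannot settle whether same-numbered libraries were cultured or processed together. With the replicate block the calls were 5 immuno-subunits higher and 0 constitutive members, with medians of 3.02 and -0.05. Length-scaled shares were not run, as no protein lengths were used here. Depth limits Psmb9, with 2 pooled untreated counts, and Psma8 and Psmb11.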

Other observations

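Neighbours of the immuno-subunits in the RefSeq gene order of GRCm38.p6 differed from one another. The counts were made on mm9 with an annotation not given in the sources used here, so the neighbours and overlaps may differ from those at counting. Psmb9 and Psmb8 lie on either side of Tap1, with Tap2 beyond Psmb8. H2-DMb1, on the other side of Psmb9, had 6 and 3 counts after IFN-beta, against 2 and 4 counts in untreated cells. Psme2 lies beside Rnf31, which encodes a linear ubiquitin ligase. Rnf31 had 317 and 338 counts after IFN-beta, against 75 and 173 counts in untreated cells (log2 fold change 1.72 ± 0.24 SE, edgeR adjusted p = 0.0015). Emc9, which lies between Psme1 and Psme2 and overlaps the end of Psme1, had 0 counts in all 4 libraries. Beside Psmb10, Ctrl had 8 and 10 counts after IFN-beta, against 5 and 5 counts in untreated cells, and Lcat did not pass the test (log2 fold change 0.41, edgeR adjusted p = 0.783). These neighbours were chosen after the values of the members were seen.

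Psme2b overlaps 9930111J21Rik1, which had 559 and 634 counts after IFN-beta, against 15 and 95 counts in untreated cells (log2 fold change 3.77 ± 0.42 SE, edgeR adjusted p = 0.00028). Its neighbour on the other side, Gm12185, had 1124 and 1279 counts after IFN-beta, against 3 and 13 counts in untreated cells (log2 fold change 7.49). Whether counts of these genes enter those of Psme2b was not tested.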
